A study of Homo sapiens with 12 samples.

Results

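The 7 genes that encode the chains of the fibrillar collagens made by fibroblasts were followed in WI-38 cells, an established line of normal human lung fibroblasts. They were taken by symbol, as COL1A1, COL1A2, COL3A1, COL5A1, COL5A2, COL5A3 and COL11A1, and linked to the counts by Entrez identifier. All 7 had counts among the 25702 genes listed, and 6 of them passed the filter on low values (10 cpm, counts scaled to the size of the library, in at least 6 libraries) that left 9490 genes for testing. COL5A3 stayed below that filter.

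RNA was sequenced from flasks in 4 conditions, with 3 flasks each. D1 was untreated cells and D1+ TGF-β was cells given transforming growth factor β, both harvested after 1 day at passages 2 to 3. D20 and D20+ TGF-β were cells kept without or with TGF-β until day 20, at passages 5 to 6. All flasks of a D20 condition were seeded from 1 flask of the same treatment, so they are sister cultures and p-values measure the spread between such flasks. Days in culture and passage moved together and cannot be told apart. Day 1 flasks were treated at confluence, and day 20 flasks were reseeded to be nearly confluent at harvest. Cell density may thus have moved with the day too, and time stands below for all of these. Each library was read on 4 lanes, which were summed, and the totals ran from 8674488 to 18286197 counts.

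Fibrillar collagens are the rope-like collagens that give connective tissue its tensile strength. Each molecule is a triple helix of α chains that is hydroxylated in the endoplasmic reticulum, exported, trimmed of its propeptides and packed with others into cross-linked fibrils. Collagen I, from COL1A1 and COL1A2, forms most of the fibril mass, collagen III joins it in extensible tissues, and the minor collagens V and XI help to start fibrils and limit their width. TGF-β is a main inducer of collagen genes in fibroblasts, which it turns into contractile, matrix-producing myofibroblasts.

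The cells carried fibroblast markers in every library. VIM (vimentin) ran from 5850 to 7874 cpm, and the sum of 7 fibroblast markers from 7796 to 10080 cpm. VIM was most of that sum, and the other markers moved between conditions. Condition means ran from 246.3 to 949.7 cpm for PDGFRA, 146.7 to 221.8 for PDGFRB and 300.2 to 688.8 for THY1. They ran from 231.8 to 1002 for DCN, 60 to 323.9 for LUM and 111.7 to 340.8 for FAP. All 5 epithelial markers and all 4 leukocyte markers were under 1 cpm in every library, and the 4 endothelial markers summed to at most 2.629 cpm. The chondrocyte list, relevant because collagen XI is best known from cartilage, summed to 59.24 to 101.7 cpm, with condition means of 51.58 to 87.79 cpm for SOX9 and of 5.733 to 12.01 cpm for MATN3, a cartilage matrix protein, highest at D20, while COL2A1 never had more than 1 count in a library. ACTA2, the smooth muscle actin that marks myofibroblasts, averaged 183.1 cpm at D1 against 767.6 at D1+ TGF-β, and 287.1 at D20 against 314.9 at D20+ TGF-β. TAGLN, the highest of the 5 such markers, averaged 1018 against 1860 on day 1 and 1101 against 1145 on day 20. CNN1 averaged 37.81 against 87.28 on day 1, but was lower with TGF-β on day 20, at 53.3 against 39.39. MYH11 and DES reached at most 1.196 and 0.711 cpm in any library. The 5 myofibroblast and smooth muscle markers together ran from 903 to 1470 cpm at D1 against 2624 to 2861 at D1+ TGF-β, and from 1397 to 1485 at D20 against 1418 to 1653 at D20+ TGF-β. Their part in the collagen results was not tested.

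Some flasks stood apart from their group. Over the 9490 genes, the root mean square log2 distance of a flask to the mean of the other 2 in its group was 0.286 for D20+ TGF-β replicate 3, against 0.181 and 0.174 for the flasks beside it. It was 0.316 for D1 replicate 2, against 0.239 and 0.222 at D1, and between 0.110 and 0.143 at D1+ TGF-β and D20. Results of the fibrillar collagen genes that change without one of these flasks are given with the value without it. For the other genes named below, values without a flask were not examined, so their calls rest on the fit of all 12 libraries. The RNA is from bulk culture, so fewer producing cells and less RNA per cell cannot be told apart.

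The genes lie on 6 chromosomes (GRCh37, GENCODE models). COL1A1 is at chr17:48261462-48278993 on the minus strand, COL1A2 at chr7:94024207-94060539 on the plus strand, COL5A1 at chr9:137533649-137736689 on the plus strand, COL5A3 at chr19:10070237-10121180 on the minus strand and COL11A1 at chr1:103342023-103574428 on the minus strand. COL3A1, at chr2:189839099-189877472 on the plus strand, and COL5A2, at chr2:189896624-190090038 on the minus strand, are neighbours that point at each other across 19.2 kb with 0 annotated genes between them. Transcripts on the opposite strand overlap COL1A1, COL1A2, COL5A1 (among them COL5A1-AS1), COL5A2 and COL5A3. The use of strand in counting is not given in the sources used here, so reads of these transcripts cannot be told apart from those of the collagen genes.

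COL5A1 and COL11A1 were higher with TGF-β on both days, and the 250 bases before the RefSeq transcription start (GRCh38.p14) of each are shown to set their promoters side by side. Of the 7 genes, 3 were matched in the RefSeq promoter table (COL5A1, COL5A3 and COL11A1). Capitals mark, on either strand, the letters GGGCGG (GC box, bound by SP1), CAGAC (SMAD box, bound by the effectors of TGF-β signalling) and CCAAT (bound by NF-Y). COL5A1 is given for chr9:134641553-134641802, plus strand, and COL11A1 for chr1:103108523-103108772, minus strand. In GRCh37 the COL11A1 stretch matches chr1:103574079-103574328, and its RefSeq start lies 350 bases inside the GENCODE gene span given above, so the stretch is within that span, while the COL5A1 start is the first base of its GENCODE gene.
COL5A1: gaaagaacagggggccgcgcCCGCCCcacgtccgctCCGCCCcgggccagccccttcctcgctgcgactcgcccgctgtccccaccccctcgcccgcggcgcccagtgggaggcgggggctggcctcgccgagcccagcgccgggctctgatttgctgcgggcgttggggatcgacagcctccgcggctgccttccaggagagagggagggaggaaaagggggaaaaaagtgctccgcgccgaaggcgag
COL11A1: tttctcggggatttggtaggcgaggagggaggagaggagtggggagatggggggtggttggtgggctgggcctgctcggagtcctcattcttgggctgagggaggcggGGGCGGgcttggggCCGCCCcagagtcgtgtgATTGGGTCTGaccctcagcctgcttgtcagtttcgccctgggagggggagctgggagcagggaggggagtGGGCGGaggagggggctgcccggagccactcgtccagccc
COL5A1 held 2 GC boxes, 230 and 214 bases before the start, and no CAGAC or CCAAT in these bases. COL11A1 held 3 GC boxes, a CCAAT 110 bases and a CAGAC 105 bases before the start, these last 2 directly adjoining. Both stretches were rich in G and C, at 74.0% for COL5A1 and 68.8% for COL11A1. Neither held the AP-1 word TGANTCA. The TATA box, written as TATAAA, was absent from both as well. Such short words are common. Of 35116 promoters of the same length, 42.6% held GGGCGG, 38.0% CAGAC, 32.0% CCAAT, 6.57% TGANTCA and 10.7% TATAAA, so the matches only describe the letters.

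At D1+ TGF-β vs D1, the comparison that asks what a day of treatment does, COL1A1, COL1A2, COL5A1 and COL11A1 rose, and COL3A1 and COL5A2 did not pass the test. Thus 4 of the 6 genes tested were called higher and 0 lower at an edgeR adjusted p under 0.01, where 6.89% of all genes were called higher and 6.5% lower (13.4% in either direction). At D20+ TGF-β vs D20, which asks for the long-term difference, COL1A1, COL5A1 and COL11A1 rose and COL5A2 fell. These are 3 higher and 1 lower of 6, against 12.8% higher and 14.7% lower among all genes (27.5% in either direction). The median log2 fold change of the 6 genes was 0.78 on day 1 and 0.62 on day 20, and that of all genes -0.02 and 0.01.

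With time in untreated cells, D20 vs D1, 5 of the 6 rose and 0 fell, against 18.9% of all genes called higher and 17.6% lower (36.4% in either direction). In treated cells, D20+ TGF-β vs D1+ TGF-β, COL3A1 and COL11A1 rose and 0 fell, against 17.2% higher and 17.7% lower (34.8%). These 2 of 6 genes are a share close to that of all genes called in either direction. The median log2 fold changes of the 6 genes were 0.67 and 0.42, beside 0.01 for all genes in both. The difference between the TGF-β responses of day 20 and day 1 was called for COL5A1 only, and it was lower, where 5.87% of all genes were called lower, 4.51% higher and 10.4% in either direction. Single flasks moved these counts. At D20 vs D1, 3 genes were called without D1 replicate 3, D20 replicate 2 or D20 replicate 3. Of all 9490 genes, 2929, 2619 and 2470 were called in these fits, against 3457 with every flask. In treated cells 4 were called without D20+ TGF-β replicate 3, where 3361 of all genes were called, against 3307 with every flask. In their response, 2 genes differed without D1 replicate 2, D20+ TGF-β replicate 2 or D20+ TGF-β replicate 3. Of all genes, 1731, 795 and 1106 were called there, against 985 with every flask. Comparisons that share a condition share its flasks.

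**Figure D1:**
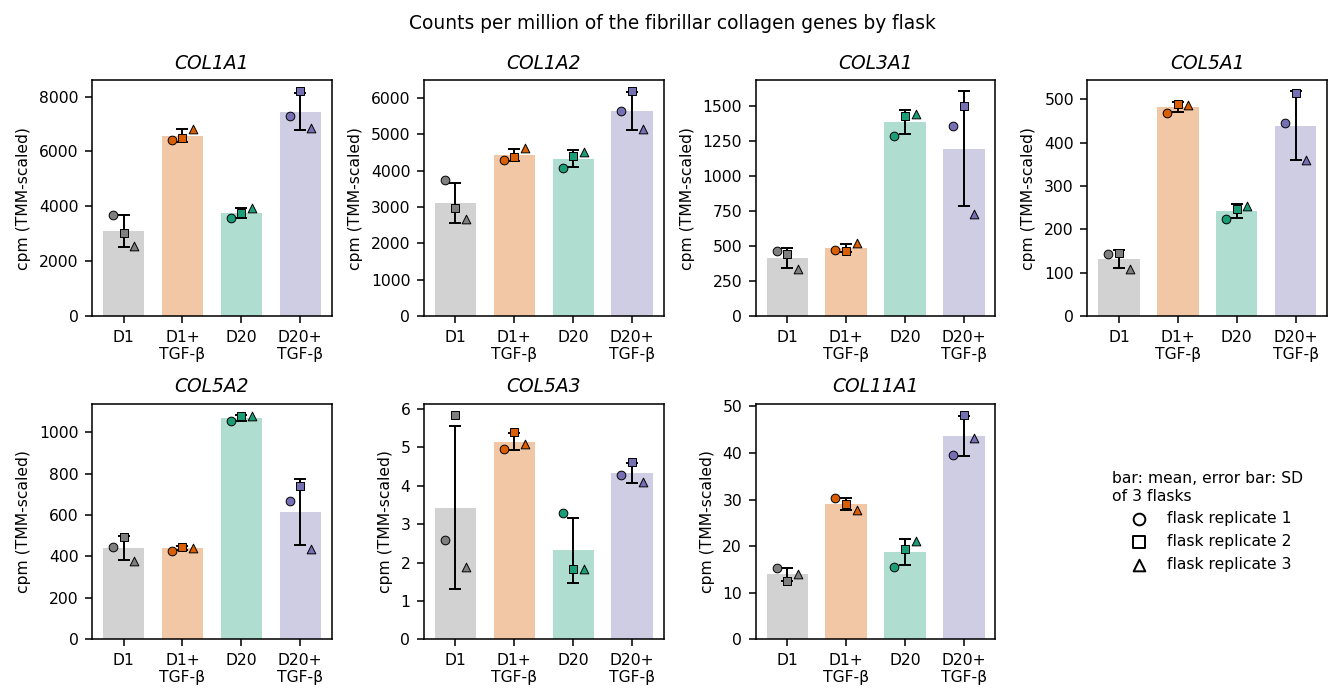
Level in cpm (TMM-scaled, linear axes from 0, a scale of its own for each gene) of the 7 fibrillar collagen genes in each flask, with bars for the mean and error bars for the SD of 3 flasks. COL1A1 and COL11A1 are higher with TGF-β on both days. COL5A2 is highest at D20, as is the mean of COL3A1, whose D20 and D20+ TGF-β flasks overlap. D20+ TGF-β replicate 3 (triangle) lies well below the other flasks of its condition for COL3A1 and COL5A2.

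COL1A1 encodes the α1 chain, which makes up a pair of the chains in each collagen I molecule. Its level was 3695, 3025 and 2548 cpm in the 3 D1 flasks against 6406, 6505 and 6827 at D1+ TGF-β, and 3582, 3752 and 3952 at D20 against 7305, 8184 and 6866 at D20+ TGF-β. Every treated flask was above every untreated flask of either day, while D1 and D20 overlapped. The log2 fold change was 1.09 ± 0.12 (SE, edgeR adjusted p = 2.5e-05), or 2.13-fold, at D1+ TGF-β vs D1 and 0.99 ± 0.12 (edgeR adjusted p = 2.39e-05), or 1.98-fold, at D20+ TGF-β vs D20. The responses of the 2 days differed by -0.10 ± 0.17 (edgeR adjusted p = 0.695). In untreated cells time gave 0.28 ± 0.12 (edgeR adjusted p = 0.0577) at D20 vs D1, a difference that was called only without D1 replicate 1 among the flasks left out (0.43, edgeR adjusted p = 0.00443). In treated cells it gave 0.18 ± 0.12 (edgeR adjusted p = 0.219), although the 3 flasks of D20+ TGF-β all lay above those of D1+ TGF-β.

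COL1A2 encodes the α2 chain, the partner of the α1 chains in collagen I. Its level was 3729, 2960 and 2663 cpm at D1 against 4292, 4383 and 4612 at D1+ TGF-β, and 4067, 4408 and 4520 at D20 against 5629, 6179 and 5133 at D20+ TGF-β. The D1 flasks were the lowest and the D20+ TGF-β flasks the highest, each without overlap with the rest, and D20 and D1+ TGF-β overlapped. The rise at D1+ TGF-β vs D1 was 0.51 ± 0.11 (edgeR adjusted p = 0.00578), or 1.42-fold. It lost its call without D1 replicate 3, without D20 replicate 2 or without any 1 of the D1+ TGF-β flasks, with values of 0.41 to 0.53 (edgeR adjusted p 0.0106 to 0.0243). At D20+ TGF-β vs D20 it was 0.38 ± 0.11 (edgeR adjusted p = 0.016), not called, but called without any 1 of the D1 flasks or without D20+ TGF-β replicate 3, with values of 0.38 to 0.45 (edgeR adjusted p 0.00362 to 0.00845). The 2 responses differed by -0.12 ± 0.16 (edgeR adjusted p = 0.625).

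With time in untreated cells COL1A2 rose by 0.47 ± 0.11 (edgeR adjusted p = 0.00361) at D20 vs D1. Without D1 replicate 3, D20 replicate 2 or D20 replicate 3 the values were 0.37, 0.46 and 0.44, and none was called (edgeR adjusted p 0.0151 to 0.018). Between the treated conditions it was 0.35 ± 0.11 (edgeR adjusted p = 0.0208), which passed without D20+ TGF-β replicate 3 (0.41, edgeR adjusted p = 0.00957) and without D1 replicate 1 (0.35, edgeR adjusted p = 0.00499).

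COL3A1 encodes the single chain type of collagen III, which co-assembles with collagen I. Its level was 467.2, 440 and 334.9 cpm at D1 against 472.1, 463.2 and 517.6 at D1+ TGF-β, and 1288, 1429 and 1443 at D20 against 1354, 1498 and 728.4 at D20+ TGF-β. All day 20 flasks were above all day 1 flasks, and within a day the treated and untreated flasks overlapped. The rise with time was 1.74 ± 0.21 (edgeR adjusted p = 1.36e-05), or 3.35-fold, at D20 vs D1 and 1.30 ± 0.20 (edgeR adjusted p = 0.000176), or 2.47-fold, in treated cells, which was 1.56 (edgeR adjusted p = 3.48e-07) without D20+ TGF-β replicate 3. The TGF-β differences were 0.23 ± 0.20 (edgeR adjusted p = 0.446) on day 1 and -0.22 ± 0.20 (edgeR adjusted p = 0.412) on day 20. The latter was 0.04 (edgeR adjusted p = 0.82) without D20+ TGF-β replicate 3, so its sign rested on that flask. The responses of the 2 days differed by -0.44 ± 0.28 (edgeR adjusted p = 0.29).

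COL5A1 encodes the α1 chain that nearly all collagen V molecules contain. Its level was 143.7, 144.3 and 107.7 cpm at D1 against 468.5, 489.7 and 486.4 at D1+ TGF-β, and 222.8, 246.5 and 253.6 at D20 against 443.9, 515.3 and 358.6 at D20+ TGF-β. Every treated flask was above every untreated one, D20 was above D1 without overlap, and the treated conditions overlapped. COL5A1 had the largest TGF-β response of the 6 genes on day 1, at 1.87 ± 0.13 (edgeR adjusted p = 4.69e-07), or 3.65-fold. On day 20 it was 0.87 ± 0.13 (edgeR adjusted p = 0.000138), or 1.82-fold. The difference between these responses was -1.002 ± 0.18 (edgeR adjusted p = 0.00189), and it stayed below the threshold in each of the 20 alternative fits (edgeR, DESeq2 or limma adjusted p at most 0.0073). In the levels, COL5A1 rose by 0.87 ± 0.13 (edgeR adjusted p = 9.71e-05) from D1 to D20. Between the treated conditions the difference was -0.13 ± 0.13 (edgeR adjusted p = 0.403) and was not called. The smaller response on day 20 thus came with a higher untreated level, and no change of the treated level was called.

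COL5A2 encodes the α2 chain of collagen V. Its level was 446.5, 495.5 and 378.3 cpm at D1 against 428.7, 447.4 and 440.7 at D1+ TGF-β, and 1054, 1076 and 1079 at D20 against 668.6, 742.3 and 435.9 at D20+ TGF-β. The D20 flasks were above all others and close to each other, and the 3 other conditions overlapped. On day 1 the difference with TGF-β was -0.00 ± 0.15 (edgeR adjusted p = 0.988). At D20+ TGF-β vs D20 the level fell by 0.80 ± 0.15 in log2 (edgeR adjusted p = 0.000907), or 1.74-fold, and by 0.60 (edgeR adjusted p = 0.000347) without D20+ TGF-β replicate 3. The difference of these responses, -0.79 ± 0.21 (edgeR adjusted p = 0.018), was not called, but it was without D1 replicate 2, D20+ TGF-β replicate 2 or D20+ TGF-β replicate 3 (edgeR adjusted p 0.00561 to 0.00683, values of -0.95 to -0.60).

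With time in untreated cells COL5A2 rose by 1.28 ± 0.15 (edgeR adjusted p = 1.47e-05), or 2.43-fold, at D20 vs D1. Between the treated conditions the difference was 0.49 ± 0.15 (edgeR adjusted p = 0.0161), and it was called without D20+ TGF-β replicate 3 (0.68, edgeR adjusted p = 6.26e-05) or without D1 replicate 2 (0.48, edgeR adjusted p = 0.00998). COL5A1 and COL5A2, whose products share a molecule, thus had the largest and the smallest difference with TGF-β on day 1, and opposite calls on day 20.

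COL5A3 encodes the α3 chain of a rarer form of collagen V. It had 30, 88 and 22 counts at D1 against 42, 95 and 43 at D1+ TGF-β, and 34, 24 and 30 at D20 against 75, 45 and 43 at D20+ TGF-β. As levels these were 2.578, 5.846 and 1.872 cpm, then 4.964, 5.388 and 5.095, then 3.298, 1.821 and 1.836, and last 4.287, 4.624 and 4.111. The D20+ TGF-β flasks were all above the D20 flasks, and D1 overlapped with each of the other conditions. Fitted with all 20434 genes that had a count, COL5A3 differed by 0.96 ± 0.30 (edgeR adjusted p = 0.0175) at D20+ TGF-β vs D20 and by 0.53 ± 0.28 (edgeR adjusted p = 0.247) at D1+ TGF-β vs D1, neither called. Its lanes differed by a median SD of 0.38 on the log2 scale, against 0.013 to 0.13 for the other 6 genes. Its flasks had a median SD of 0.30, with the widest spread, 0.86, at D1.

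COL11A1 encodes the α1 chain of collagen XI, the minor fibrillar collagen of cartilage that is close in sequence to COL5A1 and can share molecules with collagen V chains. Its level was 15.29, 12.49 and 14.13 cpm at D1 against 30.38, 29.04 and 27.73 at D1+ TGF-β, and 15.62, 19.43 and 21.18 at D20 against 39.5, 48.19 and 43.21 at D20+ TGF-β. Its 4 conditions were all free of overlap, in the order D1, D20, D1+ TGF-β and D20+ TGF-β. The gap between D1 and D20 was narrow, from 15.29 to 15.62 cpm. How many of all genes separate in this way was not counted. The TGF-β response was 1.06 ± 0.12 (edgeR adjusted p = 3.7e-05), or 2.09-fold, on day 1 and 1.20 ± 0.11 (edgeR adjusted p = 3.3e-06), or 2.30-fold, on day 20. The 2 responses differed by 0.14 ± 0.17 (edgeR adjusted p = 0.578). In treated cells it rose by 0.58 ± 0.11 (edgeR adjusted p = 0.000859) with time.

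The rise of COL11A1 with time in untreated cells, 0.44 ± 0.12 (edgeR adjusted p = 0.00905), was close to the threshold. It was not called without D1 replicate 2, D1 replicate 3, D20 replicate 2, D20 replicate 3 or any 1 of the D1+ TGF-β flasks (edgeR adjusted p 0.0129 to 0.0581, values of 0.34 to 0.45). Its partner in collagen XI, COL11A2, averaged 0.5124 to 1.054 cpm, and the cartilage collagen COL2A1 at most 0.03187 cpm in any condition.

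**Figure D2:**
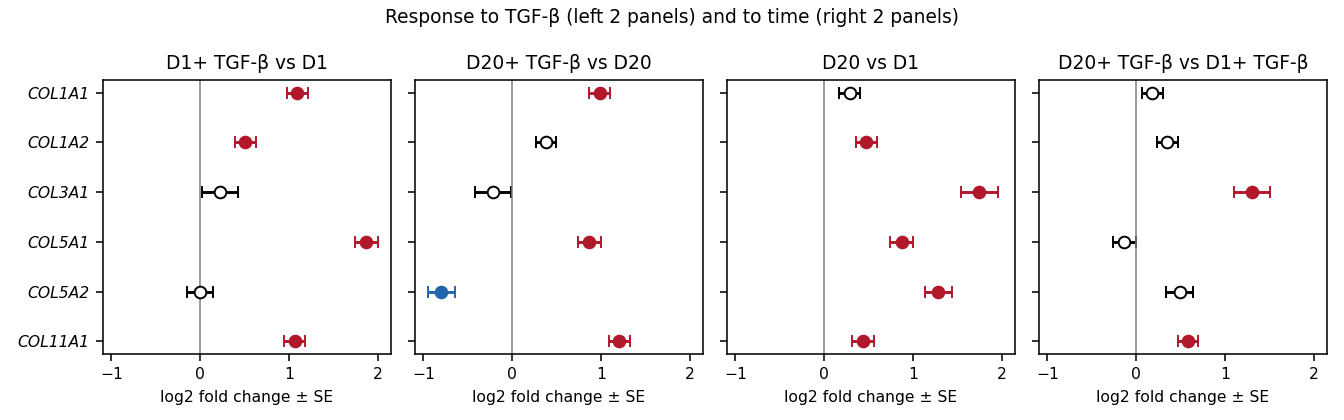
Log2 fold changes with standard errors of the 6 tested genes in the TGF-β comparisons (left) and the time comparisons (right), from the edgeR fit of all 12 libraries, where filled points passed an adjusted p of 0.01 (red higher, blue lower) and open points did not. COL1A1 and COL11A1 sit near 1 in both TGF-β comparisons, COL5A1 falls from 1.87 to 0.87, COL5A2 goes from -0.00 to -0.80, and COL3A1 and COL5A2 lead D20 vs D1.

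Per length of transcript, on the scale of cpm per kb, collagen I led in every condition. COL1A1 averaged 522 ± 97.5 (SD, n = 3) at D1 and 1260 ± 113 at D20+ TGF-β, and COL1A2 615 ± 108 and 1113 ± 103. COL3A1 and COL5A2 followed, at 75.4 ± 12.7 and 64.4 ± 8.62 at D1 and at 253 ± 15.5 and 157 ± 2.02 at D20. COL5A1 averaged 15.6 ± 2.48 at D1 and 57.0 ± 1.35 at D1+ TGF-β. Lowest were COL11A1, with means of 1.91 to 5.97, and COL5A3, with means of 0.374 to 0.830.

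All 7 genes together took 0.8523, 0.7219 and 0.6115% of the counts of the D1 flasks against 1.173, 1.188 and 1.257% at D1+ TGF-β, and 0.9994, 1.043 and 1.073% at D20 against 1.531, 1.688 and 1.354% at D20+ TGF-β. The treated flasks of each day lay above the untreated ones without overlap. Collagen I made up most of each share. In D1 replicate 1, COL1A1 took 0.3706% and COL1A2 0.3739%, and in D1+ TGF-β replicate 1 they took 0.621% and 0.4161%. The share thus mostly follows these genes and says little about the others. The TGF-β difference over both days was 0.48 percentage points (exact permutation test within day, two-sided, p = 0.005, the smallest possible). This share and 4 ratios made a family of 5 such exact permutation tests, with a Benjamini-Hochberg adjusted p of 0.00625 for each value at p = 0.005. In a single comparison of 3 flasks with 3, the smallest p an exact permutation test allows is 0.1.

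Ratios within a flask compare chains that are meant for the same fibril and do not depend on the library size. The COL1A1 to COL1A2 ratio, per length of transcript, averaged 0.849 ± 0.028 (SD, n = 3) at D1 against 1.27 ± 0.0054 at D1+ TGF-β, and 0.745 ± 0.013 at D20 against 1.13 ± 0.017 at D20+ TGF-β. With these canonical lengths, 5.914 kb for COL1A1 and 5.072 kb for COL1A2, it was above 1 with TGF-β and below 1 without it. All annotated exons together span 9.007 and 10.812 kb, so the side of 1 depends on the length used. The change with TGF-β does not. In the protein itself, α1 chains outnumber α2 chains, which a ratio of RNA does not measure. On the log2 scale of cpm the ratio ran from -0.06 to 0.03 at D1 against 0.57 to 0.58 at D1+ TGF-β, and from -0.23 to -0.18 at D20 against 0.38 to 0.42 at D20+ TGF-β, with no overlap between any conditions. The TGF-β difference was 0.59 on day 1 and 0.60 on day 20, and 0.59 over both days, or 1.51-fold (exact permutation test within day, two-sided, p = 0.005, adjusted p = 0.00625).

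The COL5A1 to COL5A2 ratio moved more. It averaged 0.242 ± 0.016 per length at D1 against 0.887 ± 0.0047 at D1+ TGF-β, and 0.182 ± 0.0099 at D20 against 0.588 ± 0.068 at D20+ TGF-β, again with SDs of 3 flasks. The log2 ratios of the treated flasks, -0.59 to 0.14, were all above those of the untreated flasks, -2.24 to -1.64. TGF-β differed by 1.88 on day 1 and 1.69 on day 20, and by 1.78 over both days, or 3.44-fold (exact permutation test within day, two-sided, p = 0.005, adjusted p = 0.00625). Whether the ratio changed by a different amount on the 2 days was not tested.

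The COL3A1 to COL1A1 ratio, a measure of collagen III against collagen I, was lower with TGF-β on both days. Per length it averaged 0.145 ± 0.011 at D1 against 0.0793 ± 0.0025 at D1+ TGF-β, and 0.397 ± 0.012 at D20 against 0.170 ± 0.049 at D20+ TGF-β, again with SDs of 3 flasks. The log2 difference over both days was -1.07 (exact permutation test within day, two-sided, p = 0.005, adjusted p = 0.00625). In contrast, COL5A1 against COL1A1 differed by 0.32 over both days (exact permutation test within day, two-sided, p = 0.095, adjusted p = 0.095). That ratio was higher with TGF-β on day 1, by 0.77 on the log2 scale, and on day 20 the difference was -0.13, with overlapping flasks.

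**Figure D3:**
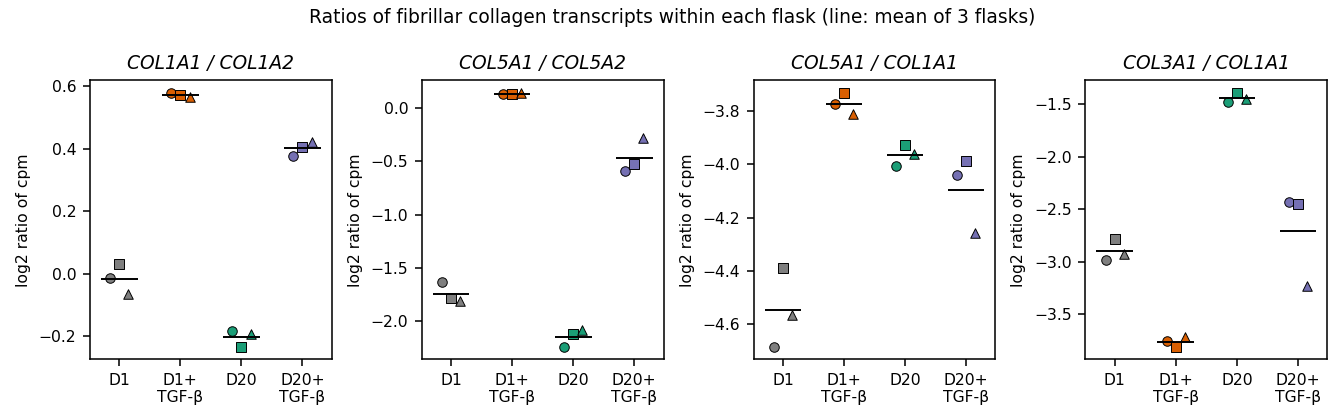
Log2 ratios of cpm within each flask for 4 pairs of fibrillar collagen genes, by condition, with a line at the mean of 3 flasks and a scale of its own in each panel. COL1A1 to COL1A2 and COL5A1 to COL5A2 are higher and COL3A1 to COL1A1 is lower with TGF-β on both days, and D20+ TGF-β replicate 3 (triangle) lies apart from the 2 flasks beside it for COL3A1 to COL1A1.

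Among the genes themselves, the shapes over the 12 libraries fell closest for COL1A1 and COL11A1, whose log2 levels, each centred on its own mean, had a root mean square difference of 0.21. COL1A1 and COL1A2 differed by 0.31 and the neighbours COL3A1 and COL5A2 by 0.39. The widest gap of the 15 pairs was 0.93, for COL5A1 and COL5A2. These values describe shared flasks and conditions and carry no test.

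By the same measure, the tested genes nearest to each chain gene were listed. COL1A1 was nearest to FBLN5 (fibulin 5, an elastic fibre protein) at 0.17, SEMA5A at 0.19 and RCN3, a calcium-binding protein of the endoplasmic reticulum, at 0.19. COL11A1 was nearest to HERPUD1 at 0.17, SEMA5A at 0.18 and MMP2, a gelatinase, at 0.21. COL5A1 had no gene closer than LMCD1 at 0.26, followed by TCF4 at 0.29 and SGCD at 0.30. COL3A1 was nearest to SOX4 at 0.19, ICAM1 at 0.21 and SOX6 at 0.23, and COL5A2 to SSH2 at 0.11, ZNF117 at 0.13 and ADAMTS7 at 0.13. COL1A2, whose condition means spanned 0.87 on the log2 scale, was too flat for this listing, which asked for a span of at least 1.

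The other genes that act on fibrillar collagens were read in lists by role, whose counts stand beside the shares of all genes called with TGF-β, 6.89% higher and 6.5% lower on day 1 and 12.8% higher and 14.7% lower on day 20. Of the 4 other fibrillar collagen genes, COL2A1, COL11A2 and COL24A1 were below the filter, and COL27A1 differed by 0.07 ± 0.19 (edgeR adjusted p = 0.812) at D1+ TGF-β vs D1 and by -0.27 ± 0.19 (edgeR adjusted p = 0.264) at D20+ TGF-β vs D20. Of 15 genes for hydroxylation, folding and export of procollagen, all of them tested, 8 rose and 0 fell on day 1 (6.89% of all genes rose), and 7 rose and 0 fell on day 20 (12.8% rose). The prolyl hydroxylase subunit P4HA2 rose by 1.08 ± 0.07 (edgeR adjusted p = 3.16e-07) on day 1 and by 0.38 ± 0.07 (edgeR adjusted p = 0.000909) on day 20, and its responses differed by -0.70 ± 0.10 (edgeR adjusted p = 0.000451), the same direction as for COL5A1. P3H1, a prolyl 3-hydroxylase, rose by 0.66 ± 0.09 (edgeR adjusted p = 0.000117) and 0.56 ± 0.09 (edgeR adjusted p = 0.000181). FKBP10, a procollagen chaperone, differed by 0.27 ± 0.08 (edgeR adjusted p = 0.0244) on day 1, not called, and rose by 0.46 ± 0.08 (edgeR adjusted p = 0.000452) on day 20. Its responses differed by 0.19 ± 0.11 (edgeR adjusted p = 0.249).

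Outside the cell, 3 of 8 propeptide-cleaving genes were tested. On day 1 0 were called, and on day 20, where 27.5% of all genes were called, the enhancer PCOLCE rose by 0.49 ± 0.08 (edgeR adjusted p = 0.000396), the N-propeptidase ADAMTS2 fell by 0.59 ± 0.11 (edgeR adjusted p = 0.00082) and the C-proteinase BMP1 differed by -0.03 ± 0.13 (edgeR adjusted p = 0.862). Of the 5 cross-linking oxidases, 2 rose on day 1 (6.89% of all genes), and on day 20 LOX rose (12.8%) and 3 fell (14.7%). LOX, the main lysyl oxidase, rose by 1.28 ± 0.09 (edgeR adjusted p = 3.87e-07) on day 1 and 0.74 ± 0.09 (edgeR adjusted p = 2.09e-05) on day 20. LOXL2 fell by 0.47 ± 0.08 (edgeR adjusted p = 0.000291) on day 20 and LOXL3 by 0.48 ± 0.12 (edgeR adjusted p = 0.00491), as COL5A2 did.

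The list of fibril-associated collagens, proteoglycans and matrix proteins had 10 of 12 genes tested, with 5 higher and 0 lower on day 1 (13.4% of all genes called in either direction) and 4 higher and 2 lower on day 20 (27.5%). BGN (biglycan) rose by 1.68 ± 0.12 (edgeR adjusted p = 4.69e-07) and 2.53 ± 0.12 (edgeR adjusted p = 7.4e-09). FN1, fibronectin, whose fibres serve as a template for collagen assembly, rose by 1.34 ± 0.13 (edgeR adjusted p = 1.05e-05) and 1.95 ± 0.13 (edgeR adjusted p = 1.57e-07). POSTN (periostin) rose by 1.54 ± 0.22 (edgeR adjusted p = 0.000242) and 3.32 ± 0.24 (edgeR adjusted p = 2.2e-07), and its responses differed by 1.78 ± 0.31 (edgeR adjusted p = 0.0015), opposite to COL5A1. SPARC, a collagen-binding glycoprotein, rose by 1.09 ± 0.07 (edgeR adjusted p = 3.16e-07) on day 1 and differed by 0.07 ± 0.07 (edgeR adjusted p = 0.44) on day 20.

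Of the 7 collagen receptor genes 6 were tested, with 2 higher and 0 lower on day 1 (13.4% of all genes called in either direction) and 1 higher and 1 lower on day 20 (27.5%), the latter a count near the share of all genes. ITGA11, a fibroblast integrin that binds collagen I, rose by 1.05 ± 0.13 (edgeR adjusted p = 7.09e-05) and 1.08 ± 0.12 (edgeR adjusted p = 1.7e-05). Its partner ITGB1 rose by 0.66 ± 0.08 (edgeR adjusted p = 4.12e-05) on day 1 and differed by 0.09 ± 0.08 (edgeR adjusted p = 0.368) on day 20, and its responses differed by -0.57 ± 0.11 (edgeR adjusted p = 0.00243). The receptor kinase DDR1 differed by -0.60 ± 0.15 (edgeR adjusted p = 0.011) on day 1, not called, and fell by 0.87 ± 0.15 (edgeR adjusted p = 0.000413) on day 20. Its responses differed by -0.26 ± 0.21 (edgeR adjusted p = 0.403). DDR2 differed by 0.24 ± 0.11 (edgeR adjusted p = 0.12) on day 1 and by 0.35 ± 0.11 (edgeR adjusted p = 0.0176) on day 20. The 5 tested genes of collagen breakdown, of 7, had 3 higher and 0 lower on day 1 (6.89% of all genes higher) and 5 higher and 0 lower on day 20 (12.8%). There the collagenase MMP1 rose by 2.42 ± 0.23 (edgeR adjusted p = 2.76e-06), MMP2 by 1.25 ± 0.11 (edgeR adjusted p = 1.7e-06) and MMP14, a membrane-bound collagenase, by 0.90 ± 0.09 (edgeR adjusted p = 3.84e-06).

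With time in untreated cells, D20 vs D1, where 18.9% of all genes were called higher and 17.6% lower, the same lists gave 1 higher and 0 lower for propeptide cleavage, 3 and 0 for hydroxylation and export, 4 and 0 for cross-linking, 5 and 1 for the fibril-associated genes, 2 and 1 for the receptors and 0 and 1 for breakdown. The 3 of 15 hydroxylation and export genes are a share close to that of all genes called higher. In treated cells, with 17.2% of all genes higher and 17.7% lower, these were 1 and 0, 1 and 3, 0 and 0, 6 and 1, 1 and 1, and 5 and 0. The response difference between the days was called higher and lower for 1 and 1, 0 and 3, 0 and 3, 2 and 1, 0 and 1, and 3 and 0 genes in the same order, beside 4.51% of all genes higher and 5.87% lower. With 3 to 15 genes tested in these lists, counts of 0 or 1 say little about a list. COL27A1 was called in none of these.

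**Figure D4:**
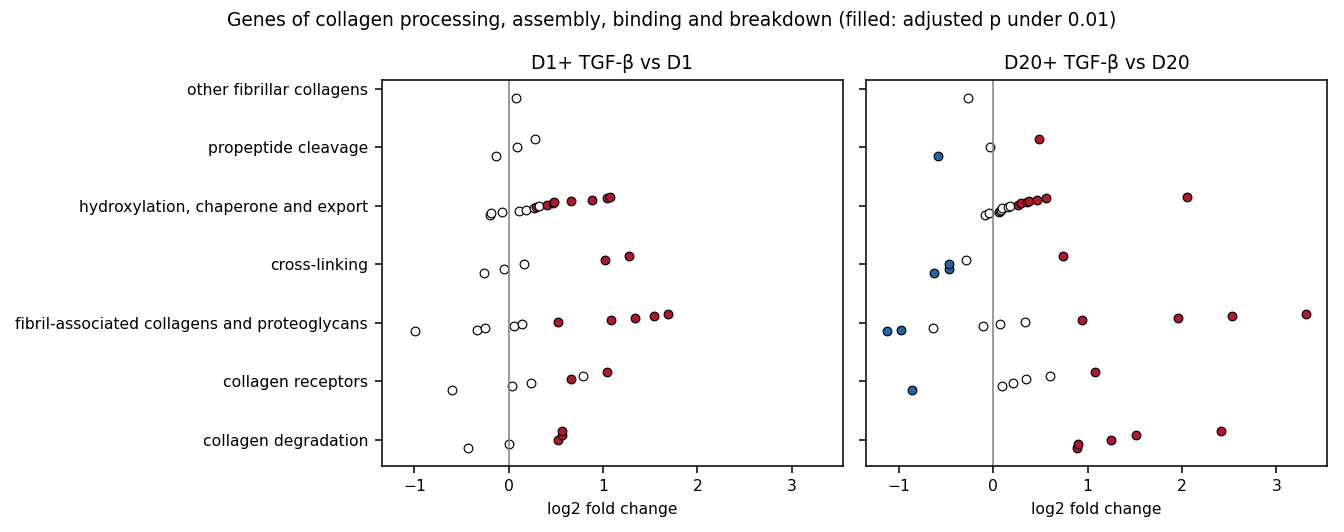
Log2 fold changes with TGF-β on day 1 (left) and day 20 (right) of the tested genes of 7 lists around fibrillar collagen, 1 point a gene, filled where the edgeR adjusted p was under 0.01 (red higher, blue lower). On day 20 all 5 breakdown genes are filled to the right of 0, while 3 of the 5 cross-linking genes are filled to the left.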

How the data were processed

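RNA of 12 flasks of WI-38 cells was sequenced as directional libraries, each on 4 lanes. The authors trimmed the reads with Trimmomatic, mapped them to hg19 with Rsubread and deposited raw counts per gene and lane, without normalization. They also deposited log2 cpm per lane as written by voom, for 9412 genes. The counting program, its annotation and its use of strand are not given in the sources used here.

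Columns were assigned by name, and lanes of a library, which repeat 1 RNA, were summed, giving 8674488 to 18286197 counts. Tests used edgeR 4.0.16 in R 4.3.3 (TMM factors, 10 cpm in at least 6 of 12 libraries, quasi-likelihood fit of all 12 libraries with 1 mean per condition, Benjamini-Hochberg over 9490 genes, adjusted p under 0.01). The common biological coefficient of variation was 9.35%. Of the genes tested, 9240 were named by the deposited table, 196 by RefSeq and 54 not at all. Log2 levels used a prior count of 2, and lengths are of the canonical GENCODE transcript. Ratios were tested by exact permutation of flasks, within day for both days together, with a threshold of 0.05.

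The genes and lists were chosen with earlier results of these data known. Of each list, the text names the 3 genes with the smallest p at D20+ TGF-β vs D20 and the 1 with the smallest at D1+ TGF-β vs D1. The nearest genes are the 3 with the smallest root mean square difference, and genes below the filter are named without a fold. Flask values are given with SD, tests with SE, and these include the counting error.

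Alternatives were DESeq2 1.42.0, limma-voom (limma 3.58.1) on 12 libraries or 48 lanes, limma on the deposited log2 values, RLE factors or none in place of TMM, all genes with a count, only the 6 libraries compared, replicate numbers as a block, and leaving out each flask. The code was tested on simulated data.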

Additional observations from a re-analysis of the deposited data

Results flagged for a closer look

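The TGF-β response of COL5A1 differed between the days by a test of the difference itself. It was 1.87 at D1+ TGF-β vs D1 and 0.87 at D20+ TGF-β vs D20 on the log2 scale, a difference of -1.002 (edgeR adjusted p = 0.00189). All 3 treated flasks were above all 3 untreated flasks on both days. In untreated cells the level rose by 0.87 from D1 to D20 (edgeR adjusted p = 9.71e-05). Between the treated conditions it differed by -0.13 (edgeR adjusted p = 0.403), which was not called. Without D20+ TGF-β replicate 3, which stood apart from its group, the difference was -0.88 (edgeR adjusted p = 0.0014), and without D1 replicate 2 it was -1.06 (edgeR adjusted p = 0.000806). Passage moved with the day, and its part in the difference was not tested.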

How the results depend on the processing

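Only the fibrillar collagen genes, their ratios and their share of counts were followed through the alternatives. Of the log2 fold changes of these genes, 555 kept their direction and side of the threshold, 31 gained a call, 23 lost it and 15 turned in sign. The tests of TGF-β over both days, for the 4 ratios and the share of counts, were judged at a permutation p of 0.05. They stayed on their side of that threshold with each flask left out and with the other values tried. Comparisons of 3 flasks with 3 could not reach the threshold, so they say nothing about stability. The count of called fibrillar collagen genes moved with the setting. With time in treated cells it went from 2 to 4 with DESeq2, 5 with 48 lanes and 2 to 4 leaving out 1 flask. Of all genes, the main fit called 3307, DESeq2 3540, 48 lanes 5724 of 9412 and fits without 1 flask 2275 to 4018. At D20 vs D1 the count went from 5 to 3 with only 6 libraries and 3 to 6 leaving out 1 flask. Of all genes, 3457, 2647 and 2470 to 4003 were called, in the same order. For the difference of responses the count went from 1 to 2 with DESeq2, 3 with 48 lanes and 2 without a gene filter. Leaving out 1 flask gave 1 to 2. Of all genes, 985, 1362, 3703 of 9412, 1313 of 20434 and 549 to 1731 were called. With the replicate block that difference had 2 calls (831 of all genes). The block gave 3 calls for TGF-β on day 1 (1072 of all genes) and 4 on day 20 (2379). For time it gave 2 calls in treated cells (3086) and 4 in untreated cells (3229). The numbers did not pair the samples, since same-numbered flasks correlated from -0.22 to 0.32, over 0.1 in 4 of 18 pairs. COL5A2 at D1+ TGF-β vs D1, close to 0, turned to 0.0014 with DESeq2, 0.0055 with limma-voom, 0.0084 with 48 lanes, 0.0096 on the deposited values, 0.0013 with RLE factors, 0.0127 with 6 libraries and 0.0080 with the replicate block, and spanned -0.10 to 0.10 leaving out 1 flask. COL3A1 at D20+ TGF-β vs D20 spanned -0.41 to 0.040 leaving out 1 flask. The COL1A1 difference of responses turned to 0.0015 without a composition factor and spanned -0.25 to 0.017 leaving out 1 flask. Lanes repeat 1 RNA, so the fit with 48 lanes counts 4 values for each flask. COL5A3 had at most 95 counts in a library, and the part of depth in its spread was not tested. Why the other calls moved was not tested.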
